A study of Rattus norvegicus with 18 samples.

Results

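Aged and neonate rat cells sorted with magnetic beads as oligodendrocyte progenitor cells (OPCs) were compared through 6 libraries of total RNA, 3 from each age, out of the 18 libraries of the series. The libraries were picked out by their labels: the source is a primary bead-sorted OPC, and the age comes from the title, where A stands for aged and N for neonate. The comparison and the gene lists were chosen with earlier results of these data known. The other 12 libraries, 3 in each of 4 groups, held aged or neonate cells from hydrogels with laminin, labelled soft or stiff. The text on growth, in the growth factors FGF and PDGF, stands on every sample, so the labels do not say how long, or whether, the primary cells were cultured. Strain, exact age, the surface antigen used for sorting and the number of animals are not given in the sources used here. No label ties the 3 libraries of a group to separate animals. The spread was estimated within the 6 groups of all 18 libraries, gels included. The p-values therefore reflect only how those libraries varied, which may be technical. Of 17337 genes in the files, 15144 were tested.

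OPCs are the dividing glial cells of the central nervous system from which myelinating oligodendrocytes form. They are known by the platelet-derived growth factor receptor Pdgfra, the proteoglycan NG2 (Cspg4) and the transcription factors Olig2 and Sox10. In aged rodents they divide more slowly, differentiate less readily and remyelinate less well than in young ones. Microglia, the resident macrophages of the same tissue, take up debris and myelin, and carry the enzymes of lysosomes, complement and antigen presentation at high levels.

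Levels were read as TPM, each transcript's share of all transcripts after correction for length, divided by a scaling factor of the library (scaled TPM). Depth was low. Read pairs on annotated exons were estimated at 70116 to 76192 per aged and 49308 to 87232 per neonate library, and a transcript of 2 kb gained 4.87 to 5.09 scaled TPM per pair in aged and 2.88 to 5.41 in neonate libraries. A gene listed at 0 was therefore not shown to be silent. Entries named as ribosomal RNA took 28.8% to 46.6% of the TPM in aged and 24.3% to 35.6% in neonate libraries. Aged replicate 1 stood apart: 14999 genes had coverage in it, against 7475 and 8075 in the other aged and 7340 to 9729 in the neonate libraries, and 77.2% of the 1197 olfactory receptor genes were covered in it, against 2.67% and 3.68% in the other aged and at most 10.7% in neonate libraries. It is called the broad aged library. Together with the first replicates of both aged gel groups it was left out in 1 alternative. Among the named genes, 10 calls were lost and 5 gained in that alternative.

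The median difference of all genes tested, aged minus neonate, was 0.69 on the log2(scaled TPM + 1) scale on which all differences are given, and 0.00 without the 3 broad libraries. Among the 3773 genes with coverage in all 6 libraries it was 0.165. Changes of gene lists are therefore reported relative to the median of all genes. limma called 394 genes at an adjusted p below 0.05, which is 2.6% of those tested: 294 were higher (1.94%) and 100 lower (0.66%) in aged cells. Without the 3 broad libraries 500 genes were called, 321 higher and 179 lower. The count was 346 without aged replicate 1, 166 without aged replicate 2, 169 without aged replicate 3, 203 without neonate replicate 1, 180 without neonate replicate 2 and 194 without neonate replicate 3. For 2435 genes (16.1%) the values of both groups did not overlap, with the aged libraries above the neonate ones for 1682 and below them for 753. The split depended on the scaling: it was 241 higher and 154 lower without scaling, and 234 and 221 after quantile normalization.

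**Figure D1:**
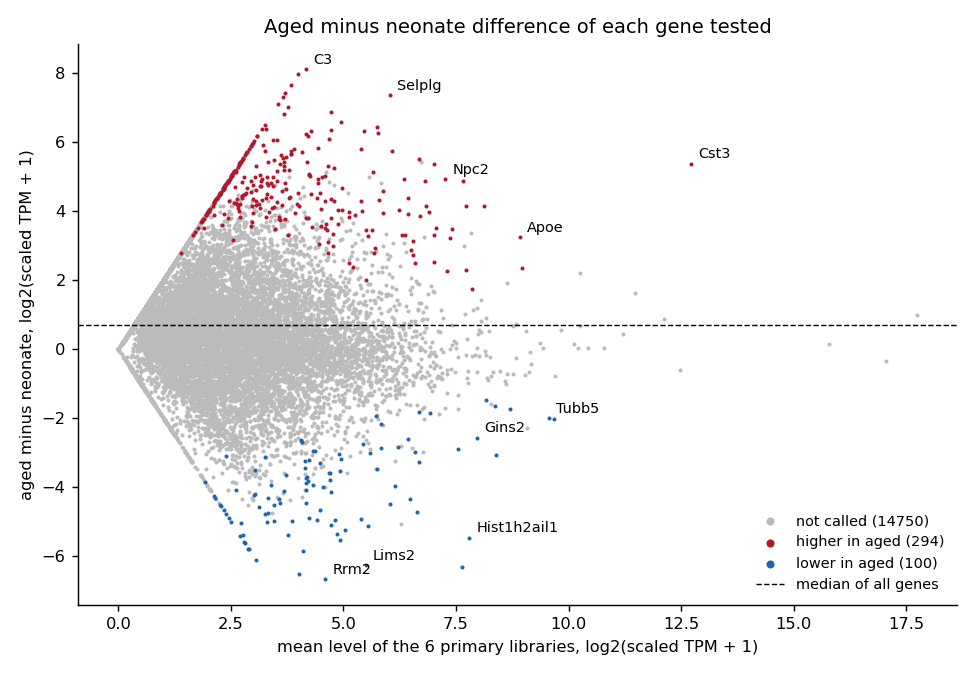
Aged minus neonate difference of each of the 15144 genes tested (vertical axis, log2(scaled TPM + 1)) against its mean level over the 6 primary libraries (horizontal axis, same unit); red points are the 294 genes called higher, blue points the 100 called lower and grey points those not called, and the dashed line is the median of all genes at 0.69. Cst3 stands alone at the upper right, and the straight edges at the left are genes listed at 0 in 1 of the groups.

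The marker lists were read first, as a check of the label. Of 18 OPC markers tested, 5 were lower and 0 higher in aged cells, with a median of -3.25 relative to all genes, and 17 of the 18 lay below the all-gene median. With 1 primary library left out 2 to 5 were called lower, with Olig1 and Ncan called every time, and without the 3 broad libraries 6. Their summed level was 213, 115 and 234 scaled TPM in aged cells, against 1044, 984 and 1194 in neonate cells. Of 18 markers of homeostatic microglia, 14 were higher and 0 lower, with a relative median of 3.54. Their summed level was 3255, 4782 and 5361 in aged cells, against 201, 203 and 299 in neonate cells. On this length-corrected scale, the microglial markers thus outweighed the OPC markers in every aged library and the OPC markers outweighed the microglial ones in every neonate library. Because the label and the markers differ for the aged group, it is called aged primary cells below. In bulk RNA, fewer cells of a type and less RNA per cell cannot be told apart.

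The defining OPC genes did not all behave alike. Pdgfra was at 15.9, 0 and 0 scaled TPM in aged cells, against 53.7, 42.6 and 74.7 in neonate cells, and fell (limma, adjusted p = 0.00595), a call lost without aged replicate 2 (adjusted p = 0.0534) and also without aged replicate 3. Cspg4 was at 13.3, 18.8 and 35.9 in aged cells, against 22.7, 30.4 and 35.8 in neonate cells, with a difference of -0.46 and an adjusted p of 0.823 in limma. These values overlapped. Olig2 was at 0.992, 9.34 and 23.9 in aged cells, against 48.8, 49.1 and 46.1 in neonate cells (limma, adjusted p = 0.181), and Sox10 at 3.15, 19.4 and 50.5 in aged cells, against 91.3, 104 and 82.7 in neonate cells (limma, adjusted p = 0.0727). For both factors the groups did not overlap, the lowest aged value was that of the broad library, and the test was not passed.

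Markers of other cell types were also present. The choroid plexus markers summed to 2040, 1465 and 7051 scaled TPM in aged cells, against 592.5, 279 and 1228 in neonate cells, and thus exceeded the microglial sum in aged replicate 3 and the OPC sum in neonate replicate 3. In the aged libraries the sums of choroid plexus, mature oligodendrocyte (789.8 to 2188) and erythroid markers (366 to 2487) all lay above the OPC sum. Most of each of these aged sums came from 1 gene: Ttr (1871, 1428 and 6779), Ptgds (414, 971.5 and 1415) and Hba1 (484, 2356 and 332). Ttr also made up most of the choroid plexus sums in neonate libraries, at 561, 272 and 1209. These sums therefore compare single abundant transcripts more than sets of markers. Neuronal markers exceeded OPC markers in neonate replicate 1. For 9 of 14 marker lists every aged sum lay above every neonate sum, and for the OPC and the neuron lists every aged sum lay below. The broad library had the highest aged sum in 8 of the 14 lists. Markers of T and NK cells summed to 60.4 to 137 scaled TPM in aged and 17.2 to 27.7 in neonate libraries, those of neutrophils to 26.9 to 199 in aged and 1.86 to 11.1 in neonate libraries, and those of border macrophages and monocytes to 71.9 to 218 in aged and 26.8 to 38.9 in neonate libraries, with 0 members called in each by limma. Without the 3 broad libraries 1 neutrophil marker, Csf3r (limma, adjusted p = 0.0237), and 1 T cell marker, Cd3d (limma, adjusted p = 0.0262), were called higher. Of 7 B cell markers tested 1 rose, Blnk, an adaptor of B cell receptor signalling that was at 43.1, 74.1 and 42.5 in aged cells but listed at 0 in every neonate library (limma, adjusted p = 0.00341). The B cell surface marker Ms4a1, outside the naming rule, was listed at 0 in all 6 libraries. Endothelial markers summed to 82.5 to 291 in aged and 36.7 to 77.9 in neonate libraries, and mural and fibroblast markers to 53.2 to 294 in aged and 42.8 to 78.4 in neonate libraries, again with 0 members called. Astrocyte and radial glial markers overlapped, at 260.2 to 502 in aged and 454 to 553 in neonate libraries, with 0 of 18 called.

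Transcripts of the choroid plexus and of red blood cells varied widely between libraries of a group. Ttr, the thyroxine carrier made by the choroid plexus, was at 1871, 1428 and 6779 scaled TPM in aged cells, against 561, 272 and 1209 in neonate cells (limma, adjusted p = 0.511). The haemoglobin gene Hba1 was at 484, 2356 and 332 in aged cells, against 99.4, 60.7 and 56.2 in neonate cells (limma, adjusted p = 0.136, and adjusted p = 0.0407 without the 3 broad libraries). The part of any of these cell types in the results below was not tested.

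**Figure D2:**
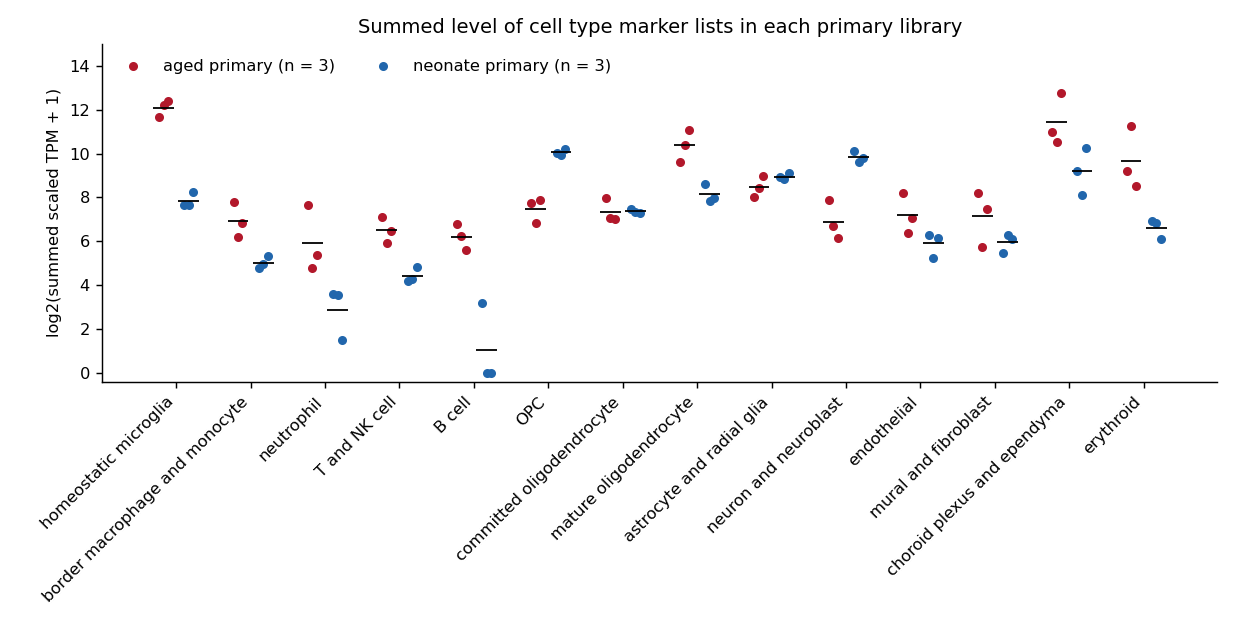
Summed level of 14 cell type marker lists in each primary library (vertical axis, log2(summed scaled TPM + 1)), with 1 point per library and a bar at the group mean of 3 libraries; aged in red, neonate in blue. Microglial sums are 3255 to 5361 in aged and 201 to 299 in neonate libraries, and OPC sums 115 to 234 in aged and 984 to 1194 in neonate libraries.

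Among protein-coding genes the highest level in the aged libraries was that of Cst3 (chromosome 3, 143219675 to 143223544, minus strand, rn6). It encodes cystatin C, a secreted inhibitor of cysteine proteases such as the cathepsins. Cst3 was at 30998, 45978 and 57723 scaled TPM in aged cells, against 753, 919 and 1650 in neonate cells. Every aged value was above every neonate value. The difference was 5.38 (SE 0.43; limma, adjusted p = 1.8e-08), and the call held whichever primary library was left out, with a highest adjusted p of 1.16e-06. As a share of TPM as deposited, Cst3 made up 5.02%, 4.34% and 6.33% of the aged libraries and 0.146%, 0.160% and 0.269% of the neonate ones. With entries named as ribosomal RNA left out, it ranked 3 in aged and 14 in neonate cells. TPM is a share of a fixed total, so a gene of this size lowers the share left to every other transcript, which the scaling by median ratios is made to offset.

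Other transcripts among the most abundant were not called. The entry LOC257642, which matched no gene of RefSeq, was at 61455, 185095 and 156373 scaled TPM in aged cells, against 103294, 182381 and 190604 in neonate cells (limma, adjusted p = 0.71). Ribosomal RNA was picked by gene name, which did not take in LOC257642, and the origin of this entry's reads was not tested. It took 9.949% to 17.46% of the TPM in aged and 20.01% to 31.73% in neonate libraries. These shares did not overlap between the groups, whereas the scaled levels did. LOC102723236, which the RefSeq table names Rn7sl1, the RNA of the signal recognition particle, was at 35998, 79113 and 72362 scaled TPM in aged cells, against 41100, 57444 and 65686 in neonate cells (limma, adjusted p = 0.885). The ribosomal protein gene Rps13 was at 2441, 6102 and 6696 in aged cells, against 4822, 8408 and 8507 in neonate cells (limma, adjusted p = 0.671), and beta-actin, Actb, at 1727, 3551 and 3402 in aged cells, against 1867, 1816 and 2479 in neonate cells (limma, adjusted p = 0.69). For each of these transcripts the broad library had the lowest aged level.

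Of the 14 microglial genes that rose, 7 were called whichever of the 6 primary libraries was left out, among them Aif1, Csf1r, Irf8, Laptm5, Selplg and Tmem119. Leaving out 1 library gave 7 to 11 called members, and leaving out the 3 broad libraries 14. Selplg, a selectin ligand (chromosome 12, 48577905 to 48579196), stood at 557, 1001 and 1059 scaled TPM in aged cells, against 0, 16.8 and 6.52 in neonate cells (difference 7.36, SE 0.95; limma, adjusted p = 5.21e-05). Csf1r, named after its values were seen and the receptor on which microglia depend for survival, was at 248, 354 and 433 in aged cells, against 20.7, 13.7 and 33.3 in neonate cells (difference 3.93, SE 0.82; limma, adjusted p = 0.00693). Both genes separated the groups without overlap, which the naming rule for the largest changes required of Selplg. Aif1, whose protein IBA1 is the common stain for microglia, was at 59.6, 67.7 and 79.99 in aged cells, against 1.21, 0 and 0 in neonate cells (limma, adjusted p = 0.00809). Cx3cr1, the fractalkine receptor, was at 401, 389.8 and 586.5 in aged cells, against 16.98, 7.97 and 19.2 in neonate cells, and its call (limma, adjusted p = 0.0414) was lost in each of the 6 leave-outs, with adjusted p of 0.0976 to 0.173. Spi1, also named after its values were seen, which encodes the myeloid transcription factor PU.1, was at 99.5, 90.4 and 118 in aged cells, against 2.95, 15.8 and 31.6 in neonate cells and was not called (limma, adjusted p = 0.12), although the groups did not overlap.

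Of 17 genes of Fc receptor, Tyrobp and Syk signalling, 9 rose and 0 fell, with a relative median of 3.40, and all 17 lay above the median of all genes. With 1 primary library left out 5 to 8 were called, and Fcer1g, Fcgr2a, Lat2, Plcg2 and Ptpn6 were called every time. Fcer1g, the signalling chain shared by several Fc receptors, was at 118, 311 and 355 scaled TPM in aged cells, against 23.7, 0 and 0 in neonate cells (difference 6.34, SE 1.13; limma, adjusted p = 0.00173). The IgG receptor Fcgr2a was at 49.1, 157 and 131 in aged cells, against 6.97, 0 and 0 in neonate cells (difference 5.67, SE 0.89; limma, adjusted p = 0.000452). Both groups were apart for each receptor gene. Plcg2, a phospholipase activated by Syk, was at 38.1, 41.1 and 28.5 in aged cells, against 0.125, 0 and 0 in neonate cells (limma, adjusted p = 0.0023). Ptpn6, the phosphatase SHP-1 that damps such receptors, was at 51.8, 72.3 and 36.2 in aged cells, against 1.32, 0 and 0 in neonate cells (limma, adjusted p = 0.000641).

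The promoters of the called genes were searched for 4 short motifs on both strands, in windows of 300 bases around the start of the gene from RefSeq (build GRCr8), with an entry for 226 of the 294 genes called higher, 83 of the 100 called lower and 12184 of the 15144 tested. The motif of PU.1, searched as GAGGAAGT, was in 14 of the 226 (6.19%), in 1 of the 83 (1.2%) and in 2.53% of the promoters of tested genes, against 2.44% of all 27457 promoters of the table. The E2F motif TTTCCCGC was in 0.442%, 2.41%, 1.67% and 1.03% of the same sets, the heat shock element GAANNTTC in 9.29%, 7.23%, 6.38% and 8.34%, and the Sox motif ACAATGG in 2.65%, 3.61%, 2.49% and 3.82%. These shares are descriptions and were not tested, and a match is not a site. A promoter with the PU.1 letters is shown for 4 genes called higher that act in the systems described here, 3 of them picked after their values were seen; the capitals mark the motif, which is on the opposite strand in Ctss.
Ctss: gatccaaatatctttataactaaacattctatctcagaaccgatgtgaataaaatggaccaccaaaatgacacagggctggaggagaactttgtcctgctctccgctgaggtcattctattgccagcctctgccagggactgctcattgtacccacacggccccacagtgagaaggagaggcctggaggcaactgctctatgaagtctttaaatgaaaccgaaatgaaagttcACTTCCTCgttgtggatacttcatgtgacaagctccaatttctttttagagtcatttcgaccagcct
Inpp5d: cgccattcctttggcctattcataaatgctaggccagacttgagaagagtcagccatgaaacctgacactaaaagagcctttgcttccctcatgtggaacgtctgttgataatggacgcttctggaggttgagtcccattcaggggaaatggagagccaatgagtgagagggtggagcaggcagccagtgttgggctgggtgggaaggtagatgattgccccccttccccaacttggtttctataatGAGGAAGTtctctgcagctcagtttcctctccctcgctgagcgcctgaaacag
Vav1: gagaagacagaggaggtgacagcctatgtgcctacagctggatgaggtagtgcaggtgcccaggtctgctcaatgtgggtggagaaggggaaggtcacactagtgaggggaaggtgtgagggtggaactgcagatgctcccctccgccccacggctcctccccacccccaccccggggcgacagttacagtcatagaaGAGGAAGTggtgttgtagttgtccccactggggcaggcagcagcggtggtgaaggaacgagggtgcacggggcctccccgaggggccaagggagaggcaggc
Havcr2: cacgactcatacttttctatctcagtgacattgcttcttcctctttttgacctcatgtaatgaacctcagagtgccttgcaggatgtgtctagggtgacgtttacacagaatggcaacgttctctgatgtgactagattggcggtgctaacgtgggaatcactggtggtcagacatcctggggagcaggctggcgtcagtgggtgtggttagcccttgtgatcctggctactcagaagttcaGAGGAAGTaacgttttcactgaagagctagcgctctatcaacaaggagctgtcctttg

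These windows lie at chr2:185775146-185775445 (Ctss), chr9:95735283-95735582 (Inpp5d), chr9:2248705-2249004 (Vav1) and chr10:31383675-31383974 (Havcr2), all on the plus strand of GRCr8. The first base of the motif was at position -17 from the start in Ctss, -3 in Inpp5d, -52 in Vav1 and -8 in Havcr2. In Ctss a match to the heat shock element begins at -25 and ends next to the PU.1 letters without overlapping them. Inpp5d, the lipid phosphatase SHIP1, was at 45.6, 48.9 and 55.9 scaled TPM in aged cells, against 1.79, 0.308 and 0 in neonate cells (limma, adjusted p = 0.00867, and 0.052 without neonate replicate 3). Vav1, a guanine nucleotide exchange factor of blood cells, was at 51.4, 58.5 and 26.9 in aged cells, against 3.54, 0 and 2.86 in neonate cells (limma, adjusted p = 0.0243, and up to 0.159 with 1 library left out). Havcr2, the inhibitory receptor TIM-3, was at 48.9, 81.7 and 90.2 in aged cells, against 0.671, 0 and 0 in neonate cells (limma, adjusted p = 0.00221).

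Complement genes were higher in 7 of 17 cases and lower in 0, with a relative median of 2.29. C1qa, C1qb and C1qc encode the chains of the recognition molecule C1q, and C3 the central component that all pathways cleave. C1qc was at 314, 568 and 670.2 scaled TPM in aged cells, against 8.92, 9.39 and 6.56 in neonate cells (difference 5.75, SE 1.05; limma, adjusted p = 0.00221). C3 was at 239, 364.5 and 301 in aged cells, against 0.249, 0 and 0 in neonate cells (limma, adjusted p = 2.4e-06). Its difference of 8.11 (SE 0.84) was the largest among genes called higher that had coverage in both ages. Itgb2, the beta chain of complement receptor 3, was at 39.2, 26.3 and 65.3 in aged cells, against 0, 0 and 2.64 in neonate cells (limma, adjusted p = 0.00348). C1qc, C3 and Itgb2 were called in all 6 leave-outs, in which 3 to 6 members were called. C4a also rose, but its annotated span holds C4b, a near-identical copy, and the pair cannot be told apart with certainty.

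Of 18 genes of MHC and antigen processing 4 rose and 0 fell (relative median 2.57), and of these B2m, Cd74 and RT1-Da were called in all 6 leave-outs. B2m, the light chain of MHC class I, was at 186, 379.5 and 394 scaled TPM in aged cells, against 29.9, 9.72 and 17.95 in neonate cells (difference 4.04, SE 0.65; limma, adjusted p = 0.00057). RT1-Da, a class II alpha chain of the rat MHC, was at 69.7, 124 and 76.6 in aged cells, against 1.35, 0 and 0 in neonate cells (limma, adjusted p = 0.00557), and Cd74, the chaperone that occupies class II molecules, was at 218, 549 and 229.6 in aged cells, against 2.57, 0 and 7.55 in neonate cells (limma, adjusted p = 0.000311). RT1-Da belongs to a family of related genes whose reads may be shared. The fourth was Cd86, a costimulatory ligand, at 28.3, 5.34 and 4.31 in aged cells and at 0 in every neonate library, whose call (limma, adjusted p = 0.0419) was lost in 5 of 6 leave-outs.

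Lysosomes digest what phagocytes take up. Among 12 cathepsins 6 rose and 0 fell, with a relative median of 2.56, and 3 to 5 were called with 1 library left out. Ctss, the cathepsin that trims the invariant chain in antigen-presenting cells, was at 271, 438 and 1060.0 scaled TPM in aged cells, against 0.784, 6.996 and 12.8 in neonate cells (difference 6.43, SE 1.24; limma, adjusted p = 0.00353). The aspartic protease Ctsd was at 210.2, 489 and 609.6 in aged cells, against 16.5, 5.24 and 61.8 in neonate cells (difference 4.39, SE 0.73; limma, adjusted p = 0.000875). Ctsa was at 147, 313 and 370.4 in aged cells, against 24.3, 16.4 and 39.0 in neonate cells (limma, adjusted p = 0.00267). Ctsa overlaps Pltp on the opposite strand, which was also called. Reads on exons that both may share cannot be told apart by counting without strand.

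Of 29 other lysosomal proteins 9 rose and 0 fell (relative median 1.70), with 3 to 7 called when 1 library was left out. Npc2, which hands cholesterol out of the lysosome, was at 493, 976 and 1239 scaled TPM in aged cells, against 12.6, 58.9 and 25.3 in neonate cells (difference 4.92, SE 0.68; limma, adjusted p = 8.52e-05). Psap, the precursor of the saposins that help enzymes reach sphingolipids, was at 140.3, 368 and 402 in aged cells, against 35.1, 27.0 and 30.1 in neonate cells (difference 3.13, SE 0.61; limma, adjusted p = 0.00382). For Npc2 and Psap the groups did not overlap and the calls held in all leave-outs.

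Of 16 genes of Toll-like receptor and NF-kappa B signalling, Tlr2, Tlr9 and Nfkb1 rose (relative median 1.90), and at most 1 was called with 1 library left out. Tlr2 was not called without the 3 broad libraries (limma, adjusted p = 0.0819). Of 23 chemokines and cytokines 3 rose: Cxcr5, a chemokine receptor at 93.5, 461.5 and 193 scaled TPM in aged cells and at 0 in every neonate library (limma, adjusted p = 0.000112), Tnf and Tgfb1. The call of Tnf (limma, adjusted p = 0.0348, and up to 0.181 with 1 library left out) was lost in 5 of 6 leave-outs. In the leave-outs 1 to 4 members were called, and only Cxcr5 every time. The chemokines Ccl3 and Ccl4 were the most abundant members. Ccl4 was at 573, 878 and 671 in aged cells, against 20.1, 0 and 200.3 in neonate cells (limma, adjusted p = 0.0515), and Ccl3 at 461, 658 and 629.6 in aged cells, against 44.6, 106 and 78.4 in neonate cells (limma, adjusted p = 0.0674), both named after their values were seen. Neither was called, although neither overlapped between groups. Of 21 interferon response genes, Usp18, a protease that removes the ubiquitin-like protein ISG15, and Ifi27 rose. The call of Ifi27 was lost in 5 of 6 leave-outs (limma, adjusted p up to 0.404, without neonate replicate 2) and without the 3 broad libraries (limma, adjusted p = 0.0941). Usp18 was at 48.8, 32.4 and 47.1 in aged cells but listed at 0 in every neonate library (limma, adjusted p = 0.00725). Of the 6 subunits of the phagocyte NADPH oxidase, which makes superoxide, 2 rose, Cyba among them, and 0 fell (relative median 2.18). Cyba was at 103, 133 and 184.5 in aged cells, against 1.02, 0 and 35.6 in neonate cells (limma, adjusted p = 0.00597, and 0.0632 without neonate replicate 2).

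Lipid carriers did not move as a list: of 15, 2 rose, 0 fell, and the relative median was 0.20. Apoe, the main carrier of cholesterol between brain cells (chromosome 1, 80612894 to 80616820), stood at 944, 1821 and 1887 scaled TPM in aged cells, against 153, 94.4 and 261 in neonate cells (difference 3.24, SE 0.58; limma, adjusted p = 0.00173). Its call held in all leave-outs, and it ranked 11 in aged and 119 in neonate cells with entries named as ribosomal RNA left out. Apod was at 31.1, 31.6 and 21.7 in aged cells but listed at 0 in every neonate library, and its call (limma, adjusted p = 0.0376) was lost in all 6 leave-outs and without the 3 broad libraries (limma, adjusted p = 0.0941). Of 21 cholesterol synthesis genes 0 were called (relative median -1.31). Fdft1, squalene synthase, was at 83.9, 248 and 130.5 in aged cells, against 30.3, 21.8 and 25.7 in neonate cells (limma, adjusted p = 0.0628, and 0.0448 without the 3 broad libraries). Of 13 fatty acid synthesis genes 0 were called as well (relative median -1.58).

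Genes of mature oligodendrocytes, the myelin-forming cells, were mostly above the median of all genes in aged cells (19 of 22, relative median 2.34), with 4 higher and 1 lower. Of the 22, 11 were listed at 0 in all neonate libraries. Ptgds, the prostaglandin D synthase of oligodendrocytes and the meninges, was at 414, 971.5 and 1415 scaled TPM in aged cells, against 50.7, 12.02 and 11.1 in neonate cells (difference 5.37, SE 1.07; limma, adjusted p = 0.00487). The iron carrier Tf was at 72.3, 96.6 and 243 in aged cells, against 3.67, 0 and 3.72 in neonate cells (limma, adjusted p = 0.0048). The broad library had the lowest aged value of both genes. Mbp, a main protein of compact myelin, was not called, at 54.0, 27.5 and 85.1 in aged cells, against 6.38, 21.6 and 0 in neonate cells (limma, adjusted p = 0.11). Mog, a myelin surface protein, was the member called lower, at 16.9, 0 and 23.5 in aged cells, against 316, 168 and 229 in neonate cells (limma, adjusted p = 0.000927). Its gene overlaps Zfp57 on the other strand, which was at 12.5, 51.1 and 96.7 in aged cells, against 3.75, 7.32 and 1.66 in neonate cells and was not called. Reads on exons that this pair may share cannot be told apart without strand. Of 15 genes of committed oligodendrocytes, the stage after the OPC, Enpp6 was called higher, a call lost in all 6 leave-outs, and the relative median was 0.02.

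**Figure D3:**
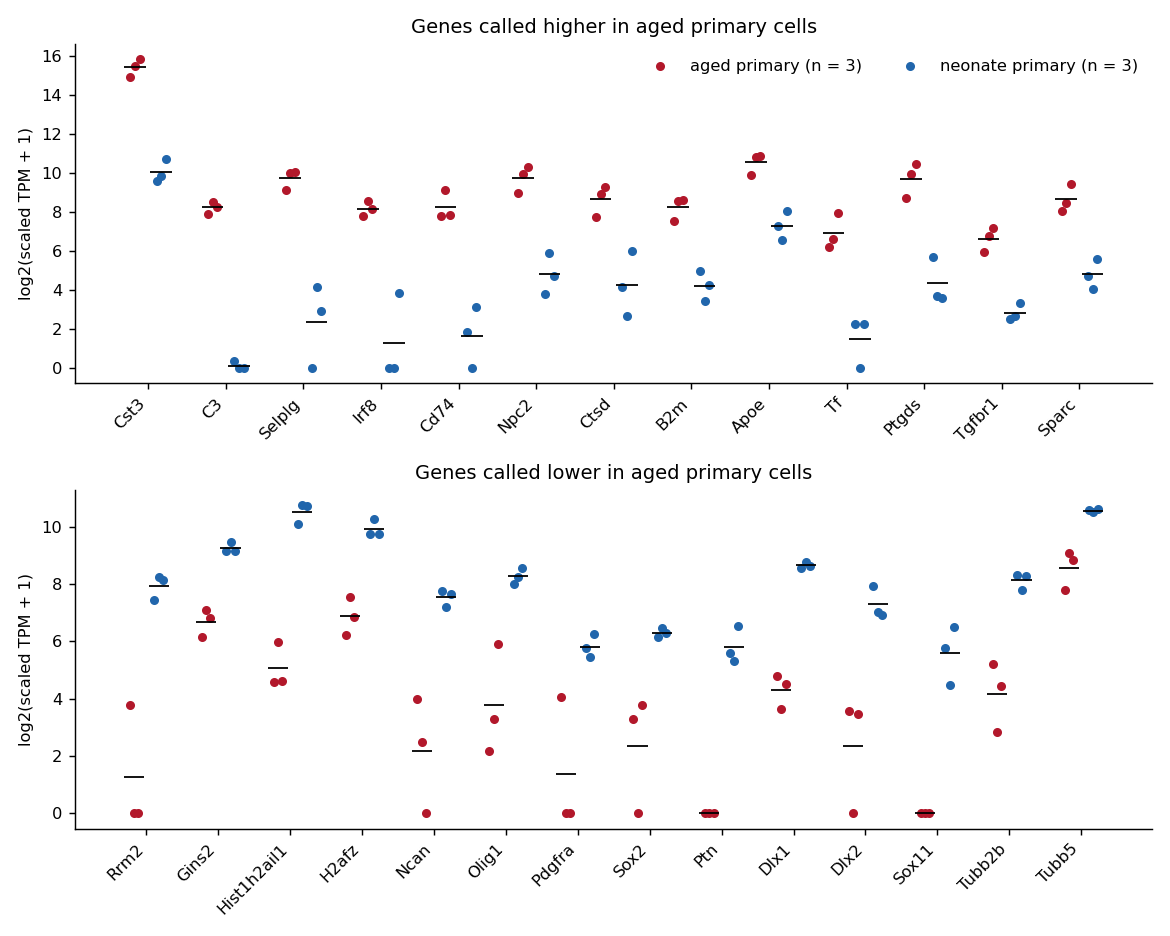
Levels of 13 genes called higher (upper panel) and 14 called lower (lower panel) in each primary library (vertical axis, log2(scaled TPM + 1)), with aged libraries in red on the left of each pair, neonate libraries in blue, and a bar at the group mean (n = 3 each). No gene shown overlaps between the groups, and points at 0 are libraries in which the gene was listed at 0. The naming rule for the largest changes required the lack of overlap of C3, Selplg, Irf8, Cd74, Rrm2, Hist1h2ail1, Ptn and Sox11.

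Of 27 glial transcription factors 7 fell and 0 rose (relative median -3.20), and 24 of 27 lay below the median of all genes. Without the 3 broad libraries 10 of them were called lower, and with 1 primary library left out 3 to 8. Olig1, a lineage factor of oligodendrocytes (chromosome 11, 31428377 to 31430519), stood at 3.53, 8.79 and 59.3 scaled TPM in aged cells, against 258, 306.5 and 381 in neonate cells (difference -4.49, SE 0.81; limma, adjusted p = 0.00191). Sox2, a factor of neural stem and progenitor cells, was at 8.82, 0 and 12.6 in aged cells, against 69.9, 88.6 and 76.7 in neonate cells (limma, adjusted p = 0.00468, and 0.0507 without aged replicate 2). Nfib was at 13.3, 3.01 and 0 in aged cells, against 74.8, 76.3 and 104 in neonate cells (limma, adjusted p = 0.0113, and 0.0932 without aged replicate 3). Only Olig1 was called in every leave-out among the 7. Ncan, a proteoglycan that OPCs secrete into the brain matrix, was at 14.9, 4.64 and 0 in aged cells, against 214, 147 and 200.4 in neonate cells (difference -5.38, SE 0.81; limma, adjusted p = 0.000312), and held in every leave-out.

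Of 27 growth factors and receptors that act on OPCs, 2 rose and 2 fell, with a relative median of -0.86. Besides Pdgfra, the heparin-binding growth factor Ptn fell: it was listed at 0 in the 3 aged libraries and at 47.1, 38.4 and 91.2 scaled TPM in the neonate libraries (limma, adjusted p = 0.00109). The genes that rose were both receptors of TGF-beta. Tgfbr1 was at 60.9, 106 and 144 in aged cells, against 4.70, 5.40 and 8.88 in neonate cells (difference 3.79, SE 0.97; limma, adjusted p = 0.0305), and Tgfbr2 at 51.3, 59.7 and 46.0 in aged cells, against 0, 4.01 and 4.08 in neonate cells (difference 4.17, SE 0.95; limma, adjusted p = 0.0132). Their ligand Tgfb1 was at 46.1, 97.4 and 103 in aged cells, against 0, 0 and 5.61 in neonate cells (limma, adjusted p = 0.0104). All 3 separated the groups, and leaving out 1 library ended the calls of Tgfbr1 in 5 cases, of Tgfbr2 in 3 and of Tgfb1 in 4, with adjusted p up to 0.135, 0.1 and 0.0646.

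All 20 neuronal and neuroblast genes tested lay below the median of all genes (relative median -1.49), and of these 5 fell and 0 rose. Npy, listed at 0 in all 6 libraries, lay below that median only because the median was 0.69. Slc17a7 was at -0.17 relative to it. The summed level of the list was 233, 102 and 69.1 scaled TPM in aged cells, against 1108, 792 and 886 in neonate cells. Dlx1 and Dlx2 are transcription factors of interneuron progenitors in the ventral forebrain. Dlx1 was at 26.7, 11.6 and 21.6 in aged cells, against 379, 432 and 398 in neonate cells (difference -4.34, SE 0.75; limma, adjusted p = 0.0012). Dlx2 was at 10.8, 0 and 10.2 in aged cells, against 246, 129 and 119.7 in neonate cells (limma, adjusted p = 0.0104), and Sox11 was listed at 0 in aged libraries and at 53.7, 21.4 and 89.9 in neonate ones (limma, adjusted p = 0.0102). Dlx1 was called in all leave-outs, Dlx2 in 4 of 6 and Sox11 in 5 of 6. Dcx, which binds microtubules in migrating neuroblasts, was at 5.31, 0 and 0 in aged cells, against 43.6, 21.5 and 41.4 in neonate cells (limma, adjusted p = 0.0166, and up to 0.0878 with 1 library left out).

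Tubulins and neurite growth genes fell in 8 of 23 cases and rose in 0, with a relative median of -2.89 and 3 to 7 called in the leave-outs. Tubb5, the beta-tubulin of dividing and immature cells, was at 220.5, 538 and 458 scaled TPM in aged cells, against 1521, 1449 and 1590.0 in neonate cells (difference -2.001, SE 0.42; limma, adjusted p = 0.00761). Tubb2b was at 35.8, 6.24 and 20.7 in aged cells, against 316.5, 223 and 309 in neonate cells (difference -3.97, SE 0.56; limma, adjusted p = 0.000111). Marcksl1, which links actin to the membrane, was at 31.5, 24.5 and 41.2 in aged cells, against 481.5, 243 and 274.5 in neonate cells (difference -3.29, SE 0.52; limma, adjusted p = 0.000452). The 3 calls held in every leave-out. Tubulin genes are close in sequence, so reads may be shared among them. The actin list held 27 genes with 1 called in each direction: Lcp1, the actin bundler of blood cells, rose and the cytoplasmic actin Actg1 fell, with a relative median of -0.21. Actg1 was at 120.7, 195.5 and 266 in aged cells, against 517, 514 and 745 in neonate cells (limma, adjusted p = 0.0406), and its call was lost in all 6 leave-outs and without the 3 broad libraries (limma, adjusted p = 0.0977).

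Histone genes fell in 4 of 23 cases and rose in 0 (relative median -2.72), with 3 to 5 called in the leave-outs. H2afz, the variant histone H2A.Z, was at 73.5, 185 and 114 scaled TPM in aged cells, against 864, 1226 and 867 in neonate cells (difference -3.06, SE 0.62; limma, adjusted p = 0.00551). H2afx, the variant that is phosphorylated at DNA breaks, was at 0, 18.5 and 6.83 in aged cells, against 184, 209 and 208 in neonate cells (limma, adjusted p = 0.000354). The replication-dependent histone Hist1h2bd was at 0, 3.72 and 0 in aged cells, against 136, 162 and 162 in neonate cells (limma, adjusted p = 0.000844). Outside the list, the entry Hist1h2ail1 was at 23.2, 62.0 and 23.4 in aged cells, against 1093, 1735 and 1707 in neonate cells (difference -5.47, SE 0.69; limma, adjusted p = 5.05e-05). All 4 separated the groups without overlap, as did 16.1% of all genes tested. The naming rule for the largest changes required this of Hist1h2bd and Hist1h2ail1. Copies of replication-dependent histones are near-identical, and their reads may be shared.

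Cell cycle genes gave few calls. Of 28 genes of DNA replication and S phase, Rrm2 and Gins2 fell and Tk1 rose, with a relative median of -1.61. Rrm2, a subunit of ribonucleotide reductase, was at 12.7, 0 and 0 scaled TPM in aged cells, against 173, 299.6 and 280.0 in neonate cells (limma, adjusted p = 5.05e-05), and Gins2, a part of the helicase that opens DNA for replication, at 70.2, 135 and 113 in aged cells, against 564, 708.5 and 575 in neonate cells (difference -2.57, SE 0.50; limma, adjusted p = 0.00393). The thymidine kinase Tk1 went the other way, at 75.5, 77.4 and 90.5 in aged cells, against 2.49, 9.20 and 10.6 in neonate cells (limma, adjusted p = 0.0319), a call lost in all 6 leave-outs. Of 25 genes of G2 and M phase 0 were called (relative median -1.83), and 2 were called lower without the 3 broad libraries. The proliferation marker Mki67 was at 27.99, 50.1 and 15.9 in aged cells, against 7.73, 9.33 and 4.24 in neonate cells (limma, adjusted p = 0.326), and Top2a at 6.86, 0 and 0 in aged cells, against 13.7, 10.99 and 26.1 in neonate cells (limma, adjusted p = 0.138, and 0.0334 without the 3 broad libraries). Both separated the groups, in opposite directions. Of 19 cell cycle regulators and senescence genes 0 were called (relative median -1.18); Cdkn2a, a cell cycle inhibitor of senescent cells outside the naming rule, was listed at 0 in all 6 libraries.

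Heat shock genes rose in 3 of 23 cases and fell in 0, with a relative median of -0.02. The inducible chaperone Hspa1b was at 68.4, 161 and 195 scaled TPM in aged cells, against 1.299, 3.11 and 6.12 in neonate cells (limma, adjusted p = 0.00557), and Hspa1a at 21.96, 70.6 and 45.1 in aged cells and at 0 in every neonate library (limma, adjusted p = 0.00984). Hspa1a and Hspa1b are near-identical, so their reads may be shared. Their cochaperone Bag3 was at 9.65, 10.4 and 20.5 in aged cells and at 0 in every neonate library (limma, adjusted p = 0.0478), a call lost in all leave-outs and without the 3 broad libraries (limma, adjusted p = 0.054). The constitutive chaperone Hspa8, named after its values were seen, was at 72.5, 152 and 215 in aged cells, against 136, 94.4 and 123 in neonate cells (limma, adjusted p = 0.896).

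Of 24 genes of the matrix and its receptors, Sparc and Itga6 rose and 0 fell (relative median -0.14), and both calls depended on single libraries: Sparc (limma, adjusted p = 0.0358, and 0.05003 without the 3 broad libraries) was lost in 6 of 6 and Itga6 (limma, adjusted p = 0.0288) in 5 of 6. Sparc, a collagen-binding protein, was at 261.5, 348 and 686 scaled TPM in aged cells, against 25.5, 15.4 and 47.3 in neonate cells. Of 17 mechanosensitive channel and YAP/TAZ genes 0 were called (relative median -1.19), and 2 were called lower without the 3 broad libraries. The stretch-gated channel Piezo1 was at 15.9, 8.26 and 8.88 in aged cells, against 0.483, 6.24 and 2.69 in neonate cells (difference 1.76, SE 0.93; limma, adjusted p = 0.461). Its levels were low for this depth, and they did not overlap between the groups, as for 16.1% of all genes tested.

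The energy and protein synthesis lists gave counts near the background. Of 57 cytosolic ribosomal protein genes 1 rose, Fau (limma, adjusted p = 0.0256), and 0 fell, with a relative median of -0.89 that became 0.06 without the 3 broad libraries. The call of Fau was lost in 4 of 6 leave-outs of a primary library (limma, adjusted p up to 0.272, without neonate replicate 2). Oxidative phosphorylation (26 genes, relative median -0.59), glycolysis (18, 0.00), translation factors (23, -1.23), the proteasome (26, -1.45), chromatin modifiers (18, -1.24), oxidant defence (24, -0.69) and immediate early transcription factors (20, 0.70) had 0 genes called by limma. In that order, their relative medians without the 3 broad libraries were -0.09, 0.42, -0.62, -0.71, -0.94, -0.45 and 1.59. In that alternative 2 immediate early genes were called higher and 1 translation factor lower. Prdx2, a peroxiredoxin that removes hydrogen peroxide, was at 172, 294 and 280.2 scaled TPM in aged cells, against 1133, 1017 and 1448 in neonate cells and missed the threshold (difference -2.29, SE 0.64; limma, adjusted p = 0.0502). The early gene Fos was at 771.5, 2300.0 and 2116 in aged cells, against 801, 1108 and 1031 in neonate cells (limma, adjusted p = 0.747). Of 16 imprinted genes 1 fell, Ndn, and of 23 neuropeptides and synaptic receptors 1 fell, Pmch, which overlaps Parpbp on the opposite strand. Of 13 iron handling genes 2 rose, Tf and the phagosomal metal transporter Slc11a1, whose call was lost in all 6 leave-outs (limma, adjusted p up to 0.209) and without the 3 broad libraries (limma, adjusted p = 0.0661).

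**Figure D4:**
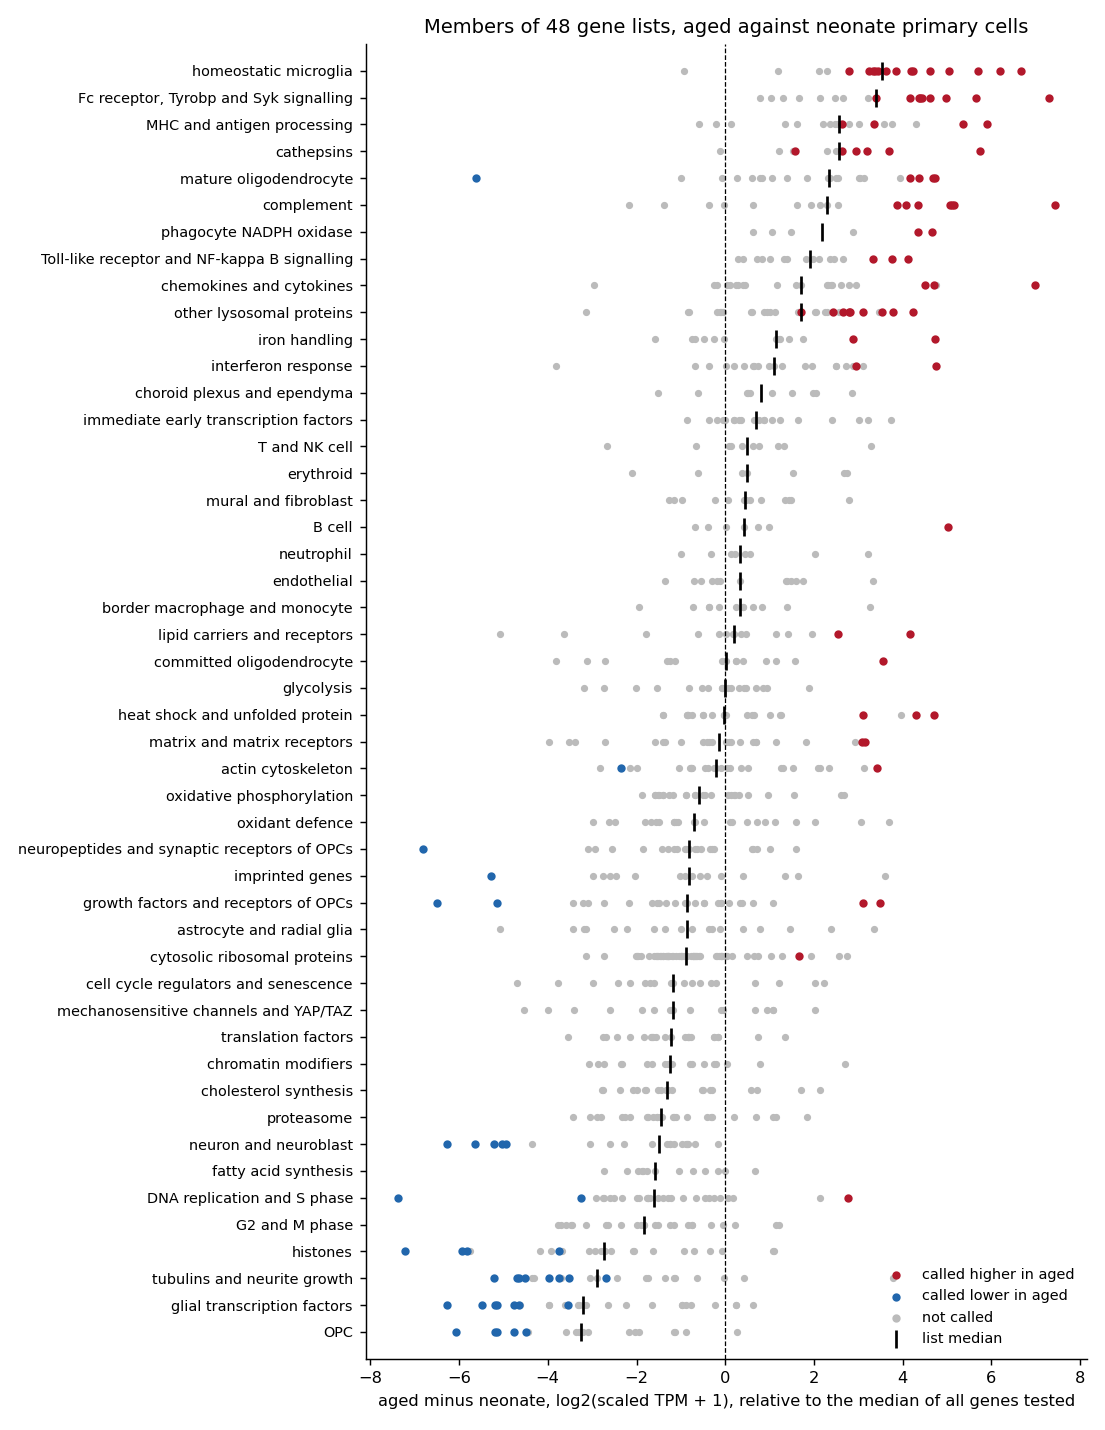
Difference of each tested member of 48 gene lists, aged minus neonate, relative to the median of all genes (horizontal axis, log2(scaled TPM + 1)); each point is a gene, red when called higher, blue when called lower, grey when not called, and the bar is the list's median. List medians run from 3.54 (homeostatic microglia) at the top to -3.25 (OPC) at the bottom.

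Lists held 76 of the genes called higher and 32 of those called lower, so most calls lay outside them. Among the largest rises were Niacr1, the niacin and ketone receptor, at 153, 175.5 and 133 scaled TPM in aged cells, against 0.690, 0 and 0 in neonate cells (limma, adjusted p = 7.17e-05), and Trpv3, a warmth-sensitive cation channel, at 106.5, 214.5 and 109 in aged cells, against 0.802, 0 and 0 in neonate cells (limma, adjusted p = 8.26e-05). The phosphatase gene Ppm1n was at 65.8, 266 and 144 and the unannotated entry LOC100911347 at 110.2, 204.5 and 176 in aged libraries, both listed at 0 in the neonate ones (limma, adjusted p = 8.26e-05 and 0.000398). Several of the largest falls were in genes with almost no aged coverage. Lims2, a partner of integrin-linked kinase, was at 1.28, 7.55 and 5.91 in aged cells, against 371, 434 and 378 in neonate cells (difference -6.27, SE 0.82; limma, adjusted p = 5.47e-05). Its span holds Gpr17, a receptor of committed OPCs, on the opposite strand. Gpr17 was at 41.7, 18.9 and 12.8 in aged cells, against 54.1, 37.9 and 12.5 in neonate cells (limma, adjusted p = 0.909). Gpr39, a zinc receptor whose gene overlaps another on the opposite strand, was at 0, 11.1 and 6.29 in aged cells, against 204.5, 260.3 and 162.5 in neonate cells (limma, adjusted p = 5.21e-05). The surface protein Cd24 was listed at 0 in aged libraries and at 56.1, 27.9 and 69.5 in neonate ones (limma, adjusted p = 0.00354), and Ngfrap1, an interactor of the neurotrophin receptor p75, at 0 in aged libraries, against 45.6, 105.5 and 32.6 in neonate ones (limma, adjusted p = 0.000167).

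A partner overlapping on the opposite strand was annotated for 18 of the 294 genes called higher (6.12%), for 15 of the 100 called lower (15%) and for 6.19% of the genes tested, shares that were not tested against each other. The overlap was taken from annotated spans, introns included, and shared exons were not determined. Only reads on stretches that both genes share cannot be told apart without strand. Olfactory receptor genes, 796 of which were tested, had a median difference of 1.44 and 0 calls by limma. Their coverage was 77.2% in the broad aged library, against 3.68% and 2.67% in the other aged libraries. The part of the broad library in this median was not tested.

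The age difference of primary cells was then set against that of cells on gels, which rests on other libraries. The genes called higher in aged primary cells had a median difference of 4.55 there and of 2.19 on gels, and 270 of 294 (91.8%) had a positive difference on gels, against 70.5% of all genes tested. The genes called lower had a median of -4.14 in primary cells and -1.92 on gels, and 98 of 100 had a negative one, against 29.4% of all genes. Since the genes were chosen by their primary difference, its larger size is not a result. The test of the difference between both age differences called 17 genes (0.112%), of which 12 had a more positive difference in primary cells and 5 a more negative one, and 10 were also called in primary cells alone.

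Cst3 was the clearest of these. On gels it was at 639 to 2419 scaled TPM in the 6 aged libraries and at 897 to 2643 in the 6 neonate libraries, a difference of -0.17, so that the age difference was larger by 5.55 (SE 0.53) in primary cells (limma, adjusted p = 8.14e-07, held in all 18 leave-outs). The level of Cst3 in the 3 aged primary libraries thus exceeded that in each of the other 15 libraries. Apoe had age differences of opposite sign in primary cells and on gels. On gels it was at 81.0 to 247 in aged and 135 to 1129 in neonate libraries, a difference of -1.26, and the age difference was larger by 4.50 (SE 0.71) in primary cells (limma, adjusted p = 0.00668, lost in 1 of 18 leave-outs). The opposite was seen for Gpnmb, a glycoprotein of phagocytes with loaded lysosomes. It was at 11.9, 109.7 and 40.2 in aged cells, against 22.6, 22.7 and 15.8 in neonate primary libraries, whereas it reached 958 to 2183 in aged and 16.7 to 91.7 in neonate gel libraries, so that the age difference in primary cells minus that on gels was -4.50 (SE 0.80; limma, adjusted p = 0.0199, lost in 3 of 18 leave-outs). Fau, a ribosomal protein fused to a ubiquitin-like one, had an age difference of 2.35 in primary cells and -1.60 on gels (limma, adjusted p = 0.0216, lost in 4 of 18 leave-outs).

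**Figure D5:**
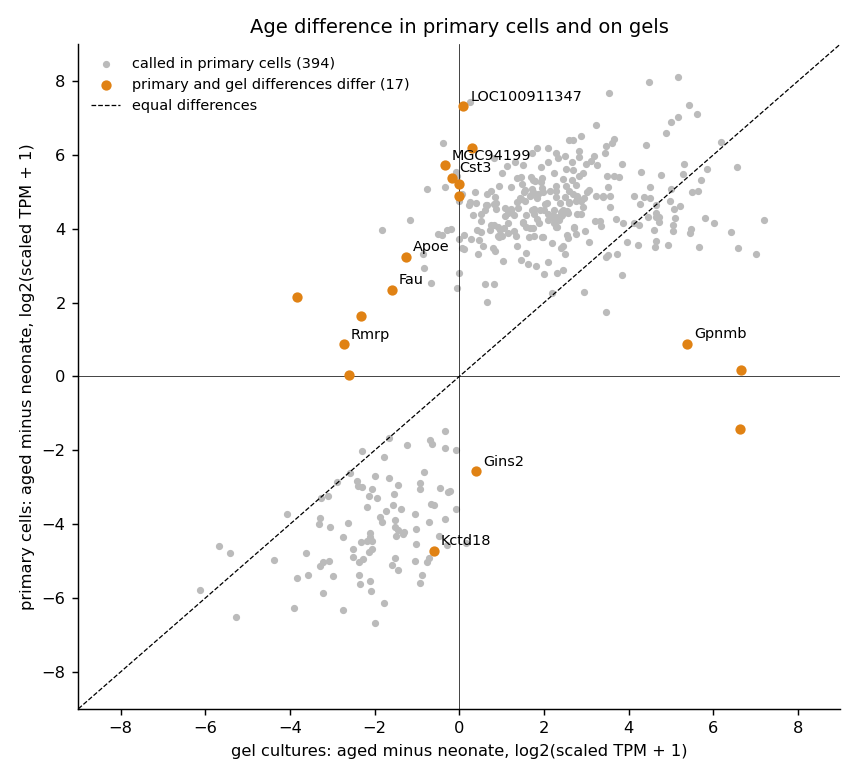
Age difference in primary cells (vertical axis) against that on gels (horizontal axis), both aged minus neonate on the log2(scaled TPM + 1) scale; grey points are the genes called in primary cells (394), orange points the 17 genes whose differences differ, and the dashed line marks equal differences. Cst3 lies at 5.38 in primary cells and -0.17 on gels, and Gpnmb at 0.88 and 5.38.

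The precision of these libraries limits what can be said of single genes. The median standard error of a difference was 1.18 and the median width of its 95% interval 4.83 on the log2 scale, while the differences ran from -1.24 at the 10th to 2.28 at the 90th percentile. Only 5 genes had a 95% interval within 1 log2 unit of 0 on either side: LOC102723236, LOC310926, Ppp1ca, Rn18s and Rpl11. For the other genes that were not called, a 2-fold change was therefore not shown to be absent. At an unadjusted p below 0.05 there were 1930 genes, 1395 higher and 535 lower. Genes with coverage in all 3 aged and no neonate library numbered 356, of which 94 were called, and 44 had coverage in all 3 neonate and no aged library, of which 15 were called. The relative list median changed sign without scaling for glycolysis and after quantile normalization for committed oligodendrocytes, heat shock and the matrix. Without the 3 broad libraries it became 0.79 for actin, 0.71 for heat shock and -0.05 for committed oligodendrocytes.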

How the data were processed

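Total RNA of 18 rat libraries was sequenced, and the authors deposited 1 transcript table per library with a TPM value for each transcript of the rn6 annotation from UCSC. StringTie 1.3.2d made these tables per the file headers, and Trimmomatic, HISAT2 and Bowtie are listed per the submitters' processing notes, without versions. TPM was summed per gene and divided by a median-of-ratios factor from the 1644 genes covered in all libraries. The filter kept genes that reached 1 TPM in 3 or more of the 18 libraries, which were tested on log2(scaled TPM + 1) with limma 3.58.1 (R 4.3.3, statmod 1.5.0), with 6 group means and a variance trend fitted on all 18 libraries. Benjamini-Hochberg adjusted p below 0.05 over all genes tested made a call. The test of the primary against the gel difference used the mean of both gel groups of each age. Read pairs were estimated from coverage, taking 300 bases per pair. TPM holds no read counts, and no strand was recorded. The test was tried on simulated data. Python 3.11.15, numpy 2.4.6, pandas 2.3.3 and matplotlib 3.10.9 were used for tables and figures.

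Of the gene names, 14821 matched a RefSeq symbol, 2098 a synonym and 240 a gene ID, and 178 matched none. The libraries, the 48 gene lists and the tests were chosen with earlier results of these data known. Named genes were the 10 called genes with the largest change in each direction (mean of at least 20 scaled TPM in the higher group and no overlap), up to 5 called members of each list or the 2 most abundant where none was called, the 5 most abundant genes of each group, up to 6 genes per direction of the gel comparison, and 14 fixed marker genes. Genes named outside this rule, among them C1qa, C1qb, C4b, Pltp, Zfp57, Gpr17, Inpp5d, Vav1 and Havcr2, were added after their values were seen. The rule gave 154 genes, of which 99 were called and 54 stayed called in all 6 leave-outs of a primary library. Alternatives changed the pseudocount, filter, scaling, samples, weights and replicate block. Some results on single genes are not reported here.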

Additional observations from a re-analysis of the deposited data

Results flagged for a closer look

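For 9 of the named genes the age difference in primary cells differed from that on gels by the interaction test in limma, fitted across all genes. The difference between both age differences was 5.55 for Cst3 (adjusted p = 8.14e-07), 4.50 for Apoe (adjusted p = 0.00668), 3.95 for Fau (adjusted p = 0.0216) and -4.50 for Gpnmb (adjusted p = 0.0199). It was 7.23 for LOC100911347, 6.07 for MGC94199 and 3.60 for the RNA entry Rmrp (adjusted p = 0.0325 each), and these calls were lost in 10, 11 and 10 of 18 leave-outs. It was -4.11 for Kctd18 (adjusted p = 0.0199), lost in 3 leave-outs, and -2.97 for Gins2 (adjusted p = 0.0458), lost in 14. Kctd18 overlaps Sgol2 on the opposite strand, and reads on exons that both may share cannot be told apart without strand.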

How the results depend on the processing

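The 394 calls (294 higher and 100 lower in aged cells) and the 17 calls of the gel comparison moved with the settings. A pseudocount of 0.1 gave 160 calls (108 higher, 52 lower) and 8 for the gel comparison, and a pseudocount of 10 gave 605 (452, 153) and 62. Without scaling 154 genes were lower, and after quantile normalization 221. With only the groups compared in the fit there were 175 calls (138, 37), and the gel comparison was not run. Array weights gave 1165 (758, 407) and 53, and voom on estimated read pairs 977 (750, 227) and 85. Without the 3 broad libraries 179 genes were lower, and the gel comparison gave 26. Over the 18 leave-outs of 1 library the calls ranged from 166 to 492, with 115 to 368 higher and 47 to 136 lower, and the gel comparison gave 2 to 26. With a replicate block 428 genes were called (319, 109), and 15 in the gel comparison. Same-numbered aged and neonate primary libraries deviated together with correlations of 0.035, 0.022 and 0.042. Those with different numbers had negative ones, from -0.032 to -0.0022. No label says what a shared number means, so these libraries were not treated as pairs. Over the named genes and alternatives, 364 results lost their call, 75 gained one, 3997 kept their direction and their side of the threshold, and 27 results of 12 genes changed direction or reached 0, none of them a gene called in aged against neonate primary cells. Without scaling the difference was -0.13 for Actb, -0.037 for Eef1a1, -0.073 for Egr1, -0.33 for Elovl5, -0.17 for Glul, -0.43 for LOC102723236 and -0.051 for Tpt1. After quantile normalization it was -0.32 for Actb, -0.34 for Elovl5, -0.49 for Glul, -0.33 for Gpnmb, 0 for LOC102723236 and -0.18 for Rmrp. With 1 library left out it ranged from -0.34 to 0.75 for Elovl5, -0.84 to 0.70 for Gfap, -0.22 to 1.42 for Glul, -0.061 to 0.51 for LOC102723236, -0.63 to 0.17 for LOC257642 and -1.41 to 1.002 for Yap1. It was 0.023 for Gfap with a pseudocount of 10, and for LOC257642 it was 0.029 with array weights, 0.048 with voom and 0.17 without the 3 broad libraries. The cause of these shifts was not tested. At this depth 1 read pair decides low values, so a gene listed at 0 is not shown to be silent.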
